A study of Mus musculus with 9 samples.

Results

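Osteopontin, the secreted glycoprotein encoded by Spp1, and the chains of its main cell surface receptors were followed in mouse prostate cancer cells given the HER3 ligand NRG1. Spp1 was chosen because its level in these libraries was higher at 24 h than at 0 h, so its values against 0 h are a description and carry no test. The receptor chains Cd44, Itgav, Itgb1, Itgb3 and Itgb5 were chosen by function, though with earlier results of these data known. The 6 genes were found by name among the 15552 protein-coding genes of the count table. All 6 were among the 11373 genes with enough counts to be tested, and the lowest value of any of them in any library was 62.0 CPM (counts scaled to library size by TMM). On GRCm38, the count table places Spp1 at chr5:104435118-104441050 (plus strand), Cd44 at chr2:102811141-102901665 (minus strand) and Itgav at chr2:83724397-83806916 (plus strand). It places Itgb1 at chr8:128685654-128733200 (plus strand), Itgb3 at chr11:104608000-104670476 (plus strand) and Itgb5 at chr16:33829665-33949338 (plus strand). Strands are from GENCODE. All are protein-coding, and the counts cover their annotated exons.

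MyC-CaP is a mouse line established from a prostate tumor that arose under a MYC transgene expressed from a prostate-specific promoter. Cells plated in triplicate wells were starved for 6 to 12 h in medium without serum and calcium, and recombinant NRG1 (rNRG1) was given at 15 ng/mL. Total RNA was collected after 0, 12 and 24 h, with 3 biological replicates at each time, and mRNA libraries were read as 150 bp pairs. All 9 libraries therefore come from 1 line that was starved in the same way, and the 0 h libraries carry the same NRG1 label as the others. Cells given buffer for 12 or 24 h were not analysed here, so hours in the starvation medium and hours with NRG1 increase together and their contributions cannot be told apart. Because replicates are wells of a single line, p-values measure the spread between these cultures. In bulk RNA, a change in the share of cells expressing a gene and a change in RNA per cell cannot be told apart.

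Osteopontin belongs to a family of acidic, heavily phosphorylated proteins of bone and mineralized tissue, and it is also secreted by many carcinomas and by macrophages. An arginine-glycine-aspartate motif in its middle is read by integrins, which are pairs of an alpha and a beta chain. The alpha v chain, encoded by Itgav, pairs with the beta 1, beta 3 or beta 5 chain (Itgb1, Itgb3, Itgb5), and the beta chain contacts the actin cytoskeleton through talin and kindlin. CD44, the hyaluronan receptor, has been described as an osteopontin receptor that acts without that motif.

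The part of the Spp1 message that carries the integrin-binding motif is shown because it is what connects the ligand to the 4 integrin chains. It lies in exon 6 of 7 of the 294-codon Spp1 transcript at chr5:104439442-104439531 (GRCm38, plus strand). The 90 coding bases are written 5′ to 3′, with the codons for arginine, glycine and aspartate in capitals. These are codons 144 to 146, and the motif occurs 1 time in the reading frame.
Spp1 coding stretch: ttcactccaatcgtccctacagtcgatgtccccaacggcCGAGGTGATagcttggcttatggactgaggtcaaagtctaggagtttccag

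The 250 bases before the first of 2 RefSeq start sites of Spp1 are shown because genes for factors that act on this promoter are described further on. They are taken from RefSeq at chr5:104434861-104435110 (GRCm38.p6, plus strand). Capitals mark matches, on either strand, to an ETS core (AGGAAG, which reads CTTCCT on the other strand), to the TATA box letters TATAAA and to the CCAAT box, found here as ATTGG on the other strand. A match to the RUNX letters ACCACA is also marked.
Spp1 upstream stretch: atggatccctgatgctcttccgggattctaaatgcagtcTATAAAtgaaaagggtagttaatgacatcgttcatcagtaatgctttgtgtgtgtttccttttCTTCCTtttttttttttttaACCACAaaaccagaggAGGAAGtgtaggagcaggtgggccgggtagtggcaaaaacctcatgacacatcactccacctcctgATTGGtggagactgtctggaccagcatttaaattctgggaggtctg

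The ETS core letters appear at -148 and -112, the RUNX letters at -128, the TATA box letters at -211 and the CCAAT box letters at -46. Positions are counted to the first base of each match from the start as 0. Whether any of these matches acts on this start was not tested. None of these matches overlaps another. Of 32851 annotated 300-base promoter windows, 35.4% hold the ETS core letters, 16.8% the RUNX letters, 13.6% the TATA box letters and 37.4% the CCAAT box letters. The window around this start, including 50 bases after it, has no AP-1 letters (TGANTCA, in 7.81% of windows), no E-box (CACGTG, in 7.15%) and no GC box (GGGCGG, in 35.7%). The windows of Cd44, Itgav, Itgb1 and Itgb5 each hold at least 1 GC box. Those of Cd44, Itgav and Itgb1 also hold at least 1 ETS core, and that of Itgb5 holds none. No window was available for Itgb3. The window of the other Spp1 start, at position 104436192, has 1 ETS core at -161 and none of the other letters searched.

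The libraries held between 28467089 and 39239760 counts. Mitochondrial genes took 1.41% to 1.5% of them in the 0 h libraries, 1.12% to 1.18% after 12 h and 1.21% to 1.36% after 24 h, and the part of this difference in the results was not tested. The labelled cell type, prostate cancer epithelial-like cells, was set against luminal markers. Krt8 averaged 21.2 CPM, whereas Krt18 averaged 0.316 CPM and Epcam and Cdh1 never exceeded 3 and 4 counts in a library, so these defining epithelial markers were close to absent. Markers of cells that produce osteopontin elsewhere were low: 5 of 6 macrophage and leukocyte markers were in the table, none averaged 1 CPM, and their summed level was between 0.390 and 0.868 CPM at 0 h, between 0.740 and 0.914 CPM at 12 h and between 0.408 and 1.14 CPM at 24 h. Among 3 osteoblast markers in the table, Bglap and Sp7 did not exceed 2 and 1 counts, and Runx2, at a mean of 21.7 CPM, made up nearly all of a sum between 19.6 and 24.5 CPM. Basal markers summed to at most 0.421 CPM and endothelial markers to at most 0.359 CPM in any library, and 4 of 5 fibroblast markers in the table averaged under 1 CPM, with Pdgfra at 16.5 CPM making up most of sums between 15.3 and 18 CPM.

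Spp1 was higher in all 6 libraries taken after NRG1 than in any of the 3 taken before it. Its 3 libraries at 0 h held 440.8, 475.3 and 451.8 CPM. At 12 h they held 840.3, 894.0 and 922.2 CPM, and at 24 h 892.3, 886.4 and 891.4 CPM. The level was thus already reached at 12 h, and the 24 h libraries lay within the range of the 12 h libraries. The means were 456 ± 17.6 (SD, n = 3), 885.5 ± 41.6 and 890 ± 3.18 CPM. These values rest on 12421 to 18068 counts in a library at 0 h and on 27246 to 34995 counts after NRG1.

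The log2 fold change of Spp1 was 0.96 (SE 0.040) at 12 h and 0.96 (SE 0.040) at 24 h against 0 h, or 1.94-fold and 1.95-fold. Between 12 and 24 h it was 0.0075 (SE 0.039). That value also uses the 24 h libraries by which Spp1 was chosen, so it too is a description and carries no test. For scale, the median over all tested genes was -0.0028 at 12 h and -0.0065 at 24 h, with 5th to 95th percentiles of -0.41 to 0.40 and -0.32 to 0.44. Spp1 stood at place 48 from the highest log2 fold change at 12 h and at place 52 at 24 h among 11373 genes. Part of its exonic sequence, 18.8%, is also annotated on the same strand to Gm42793. Gm42793 is a locus with no assigned coding status that is not among the genes analysed here. How reads in the shared part were counted was not stated.

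**Figure D1:**
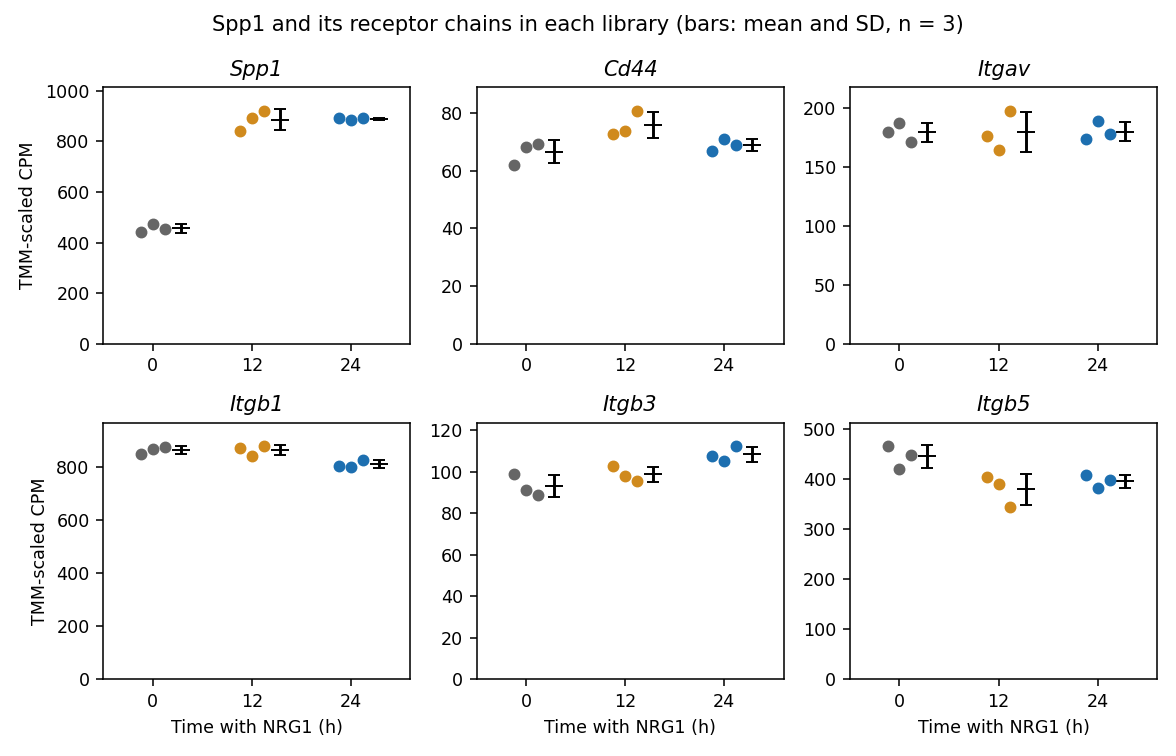
TMM-scaled CPM of Spp1, Cd44, Itgav, Itgb1, Itgb3 and Itgb5 (vertical axes from 0) against hours with NRG1; each point is 1 library and the bars give the mean and SD of 3. Spp1 separates 0 h (440.8 to 475.3 CPM) from 12 and 24 h (840.3 to 922.2 CPM), whereas the receptor chains differ less between times. Itgb5 lies lower at 12 and 24 h (345.3 to 407.5 CPM) than at 0 h (421.2 to 466.1 CPM). Cd44 is highest at 12 h, Itgb3 is highest at 24 h and Itgb1 is lowest at 24 h.

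Among all 15552 genes, Spp1 ranked between 281 and 323 by CPM in the 0 h libraries, between 117 and 138 at 12 h and at 118 or 119 at 24 h. It accounted for 0.0436% to 0.0477% of all counts at 0 h, for 0.0832% to 0.0910% at 12 h and for 0.0889% to 0.0899% at 24 h. Per kilobase of exon its level was 276.7 ± 10.7 at 0 h, 537.3 ± 25.3 at 12 h and 540.1 ± 1.93 at 24 h (RPKM, which is CPM per kilobase of merged exons). By that measure it ranked between 147 and 162 at 0 h and between 71 and 87 afterwards, among 15541 genes with a length.

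The order of levels among the 6 genes is given on this per-length scale. At 0 h the order was Spp1, then Itgb1 at 211.4 RPKM, Itgb5 at 125.4, Itgav at 16.7, Itgb3 at 15.8 and Cd44 at 9.82. The ranges of Itgav and Itgb3 overlapped at 0 h and 12 h, so those neighbours did not differ beyond their spread there. At 24 h, Itgb3 lay between 17.9 and 19.0 RPKM and Itgav between 16.2 and 17.6. The other neighbours did not overlap at any time. Merged exons count every annotated exon of a gene, including the variable exons of Cd44, so a gene with many alternative exons has its per-length level lowered. Gene counts do not show which splice forms of CD44 were made or which alpha and beta chains were paired.

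**Figure D2:**
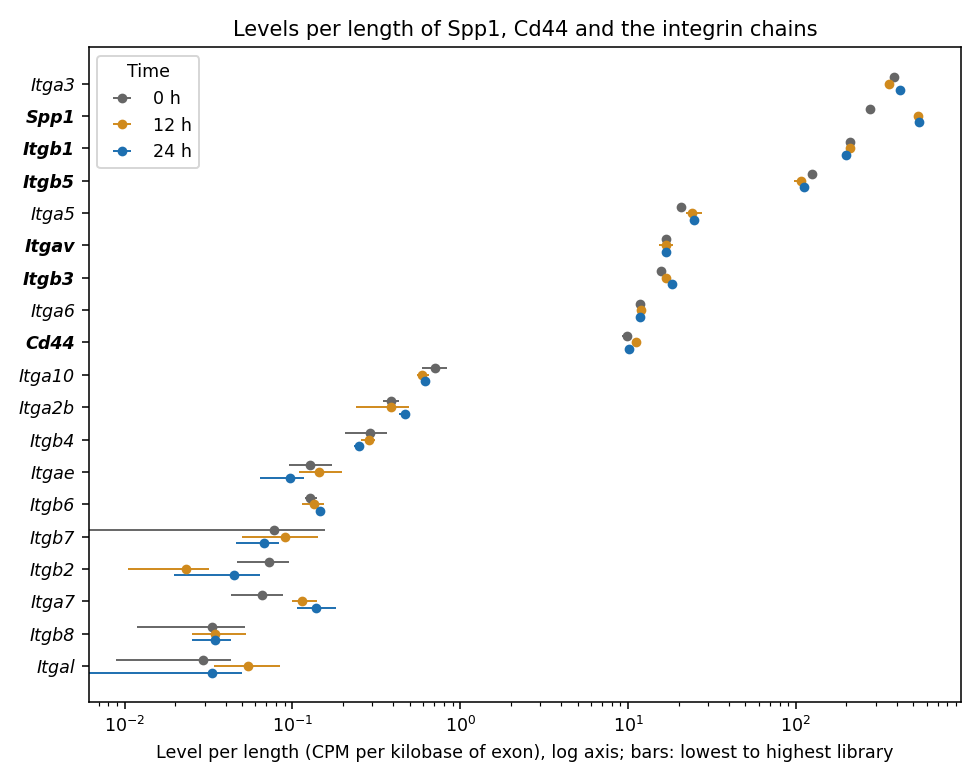
Level per length (CPM per kilobase of merged exons, log axis) of Spp1, Cd44, the tested integrin chains, Itgb2 and Itgb7 at 0, 12 and 24 h. Itgb2 and Itgb7 had too few counts to be tested. Points are means of 3 libraries, and bars run from the lowest to the highest library. A bar that meets the left edge reaches 0, and the 6 genes followed here are in bold. Spp1 moves from 276.7 to 537.3, past Itga3, while Itgb1 lies at 198.3 to 211.4, Itgb5 at 107.0 to 125.4, and Itgav, Itgb3 and Cd44 between 9.82 and 18.4.

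Among the 5 receptor chains, Cd44 was higher and Itgb5 lower at 12 h than at 0 h, and Itgb3 was higher and Itgb5 lower at 24 h. Thus 2 of 5 chains passed at each time (edgeR quasi-likelihood test, Benjamini-Hochberg adjusted p of at most 0.05 over all tested genes). Of all tested genes, 25.5% passed at 12 h (13.6% higher, 11.9% lower) and 17.4% at 24 h (9.67% higher, 7.76% lower). With 5 chains, nothing is read from these shares beyond the counts. None of the 5 reached 1.5-fold, which 2.29% of all tested genes did at 12 h, 2.27% at 24 h and 0.29% between 12 and 24 h. Libraries did not overlap for 2 of 5 chains at 12 h and for 3 of 5 at 24 h, against 38.4% and 35.5% of all tested genes, and for 3 of 5 between 12 and 24 h, against 25%. Between 12 and 24 h, edgeR found 0 of 5 chains passing, with 5.03% of all tested genes passing (1.97% higher, 3.06% lower), while 3 of 5 had an unadjusted p under 0.05, as did 20.1% of all tested genes. DESeq2, run on all 15552 genes with its own scaling, passed 1 chain, Itgb1, and 4.62% of all genes.

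CD44 binds hyaluronan and anchors to actin through ezrin, radixin and moesin. Cd44 was measured at 62.0, 68.3 and 69.3 CPM at 0 h, at 72.6, 73.9 and 80.8 CPM at 12 h and at 66.8, 70.9 and 68.8 CPM at 24 h. The 12 h libraries lay above those of both other times, and the 24 h libraries overlapped those of 0 h. Cd44 rose by 0.18 at 12 h on the log2 scale (SE 0.052, edgeR adjusted p = 0.0145). At 24 h against 0 h the log2 fold change was 0.047 (95% confidence interval -0.062 to 0.157, adjusted p = 0.594), and between 12 and 24 h it was -0.14 (-0.25 to -0.028, adjusted p = 0.140). The 12 h call was lost when replicate 1 of 0 h, the lowest Cd44 library, was left out (log2 fold change 0.14, adjusted p = 0.0703).

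Itgav, the alpha chain common to the RGD-binding osteopontin receptors alpha v beta 1, alpha v beta 3 and alpha v beta 5, did not separate the times. Its libraries held 179.7, 187.7 and 171.6 CPM at 0 h, 176.6, 164.6 and 198.0 CPM at 12 h and 173.6, 189.3 and 177.7 CPM at 24 h. The 3 ranges overlapped, and the means were 179.7 ± 8.05, 179.7 ± 16.9 and 180.2 ± 8.13 CPM. The 95% confidence interval of the log2 fold change ran from -0.12 to 0.12 at both times (edgeR adjusted p of 1 at 12 h and 0.976 at 24 h). Differences of that size or smaller were not detectable here.

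Itgb1, which pairs with many alpha chains besides alpha v, was the most abundant of the 3 beta chains. It measured 847.0, 867.4 and 873.9 CPM at 0 h and 868.8, 841.5 and 877.2 CPM at 12 h, so these times overlapped. At 24 h it measured 802.9, 798.7 and 826.2 CPM, below every earlier library. The log2 fold change at 24 h against 0 h was -0.092 (95% confidence interval -0.16 to -0.022) and did not pass in edgeR (adjusted p = 0.0664). It did pass in DESeq2 (-0.090, adjusted p = 0.0253), as did the value at 24 h against 12 h (-0.091, adjusted p = 0.0472), and it passed in edgeR without replicate 1 of 0 h (-0.11, adjusted p = 0.0407).

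Itgb3 and Itgb5 encode alternative partners of alpha v. At 24 h against 0 h Itgb3 was called higher and Itgb5 lower, a call that for Itgb5 depended on single libraries. Itgb3 libraries held 99.1, 91.2 and 88.7 CPM at 0 h, 102.7, 98.1 and 95.7 CPM at 12 h and 107.4, 105.3 and 112.3 CPM at 24 h. The 12 h libraries overlapped those of 0 h, and the 24 h libraries lay above all others. Itgb3 rose by 0.22 at 24 h on the log2 scale (SE 0.046, edgeR adjusted p = 0.00279). At 12 h the log2 fold change was 0.089 (95% confidence interval -0.0086 to 0.187, adjusted p = 0.176), and it passed only without replicate 1 of 0 h (0.14, adjusted p = 0.0453). The value between 12 and 24 h was 0.13 (0.036 to 0.23, adjusted p = 0.107).

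Itgb5 libraries held 466.1, 421.2 and 449.4 CPM at 0 h, 404.6, 390.6 and 345.3 CPM at 12 h and 407.5, 381.9 and 398.8 CPM at 24 h. Every library after NRG1 lay below every 0 h library, and the 12 and 24 h libraries overlapped. Itgb5 fell by 0.23 on the log2 scale at 12 h (SE 0.052, edgeR adjusted p = 0.00403). At 24 h it fell by 0.17 (SE 0.052, adjusted p = 0.0323). The fall at 24 h was no longer called without replicate 1 (-0.14) or 3 (-0.16) of 0 h, or without replicate 1 (-0.19), 2 (-0.14) or 3 (-0.17) of 24 h. The 12 h call of Itgb5 and the 24 h call of Itgb3 held under all 16 alternatives tried.

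Expressed as shares of the summed per-length level of the 3 beta chains, Itgb3 made up 4.47% ± 0.248 before NRG1 (SD, n = 3), 5.0% ± 0.058 after 12 h and 5.59% ± 0.0966 after 24 h. The 3 times did not overlap in this share. Itgb5 made up 35.6% ± 1.35, 31.9% ± 2.00 and 34.0% ± 0.717, and Itgb1 between 58.4% and 65.5% in any library. The ratio of Itgb5 to Itgb3 was 7.67 to 8.42 before NRG1, 5.99 to 6.62 after 12 h and 5.90 to 6.30 after 24 h. These shares and ratios are given as a description with no test. They compare mRNA levels, and not the receptor chains on the cell surface.

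**Figure D3:**
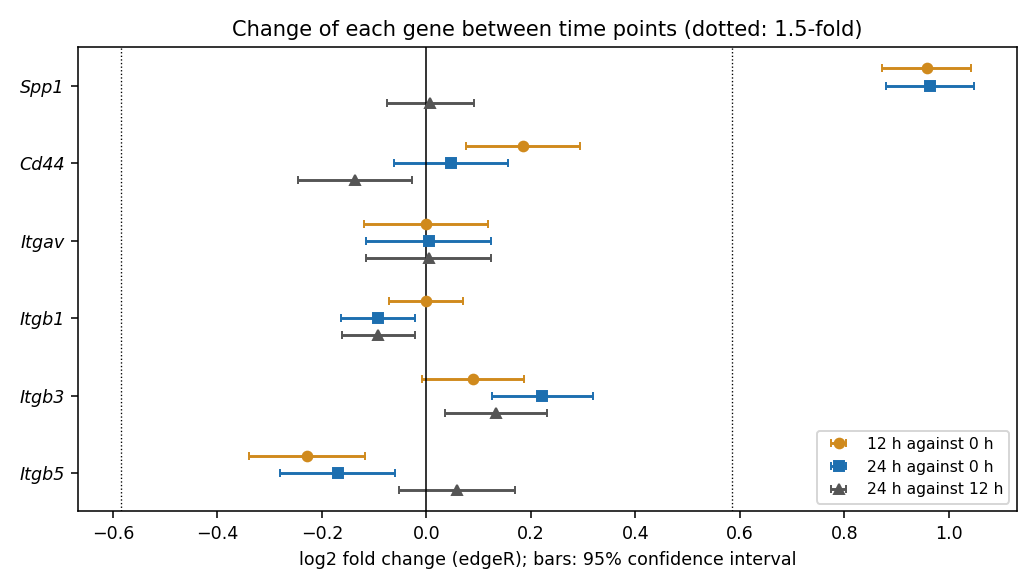
Log2 fold change of each gene at 12 h against 0 h, 24 h against 0 h and 24 h against 12 h (edgeR, 3 libraries per time); bars are 95% confidence intervals and dotted lines mark 1.5-fold. The values of Spp1 against 0 h (0.96 at both times) lie beyond the dotted line, and those of the 5 receptor chains lie within -0.23 and 0.22. Spp1 was chosen for its higher level at 24 h, so its bars are drawn for description only and carry no test.

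Other integrin chains known to serve osteopontin receptors were also looked up. Itga5, the fibronectin receptor chain that pairs with beta 1, measured 101.4 ± 6.03 CPM before NRG1, then 118.9 ± 14.5 and 121.1 ± 7.2 CPM, and its libraries at each later time lay above those of 0 h. On the log2 scale it rose by 0.23 and 0.26 at 12 and 24 h (edgeR adjusted p = 0.0216 and 0.0162). The 12 h call of Itga5 was lost without replicate 1 (0.21) or 3 (0.20) of 0 h or replicate 3 of 12 h (0.13), and the 24 h call without replicate 1 (0.24) or 3 (0.23) of 0 h or replicate 2 of 24 h (0.21). Itga8 had at most 1 count in a library. Itgb6, the epithelial partner of alpha v, averaged 0.966 CPM and did not pass (log2 fold change 0.10 and 0.21, adjusted p = 0.799 and 0.612). Itga4 and Itga9 were not analysed here.

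Of the 22 other integrin chains listed, 20 were in the table and 11 were tested. At 12 h, 1 passed as higher and 1 as lower (18.2%, against 25.5% of all tested genes), and at 24 h 3 passed as higher and 0 as lower (27.3%, against 17.4%), with list medians of 0.080 and 0.12 on the log2 scale. Itga3, which encodes the alpha chain of a laminin receptor, had the highest per-length level of all integrin chains tested, at 384.2, 357.7 and 417.2 RPKM. It fell by 0.10 at 12 h (edgeR adjusted p = 0.0275), rose by 0.12 at 24 h against 0 h (adjusted p = 0.0175) and rose by 0.22 between 12 and 24 h (adjusted p = 7.8e-04). The 12 h call of Itga3 was lost without replicate 2 of 0 h, replicate 2 of 24 h or any 1 of the 12 h replicates (-0.10 in each) and when the 24 h libraries were kept out of the fit (-0.11, adjusted p = 0.0791), and the 24 h call without replicate 3 of 0 h (0.11) or replicate 2 (0.12) or 3 (0.11) of 24 h. Itga7, singled out after its values were seen as the 1 chain past 1.5-fold, averaged only 0.859 CPM (log2 fold change 1.04 at 24 h, adjusted p = 0.0323).

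Spp1 sits in a cluster of related bone and tooth protein genes, and enzymes such as transglutaminases and matrix metalloproteinases crosslink or cleave its product. Of 14 such relatives and enzymes listed, 7 were in the table and 3 had enough counts to be tested. The relative Dmp1 did not exceed 1 count, and Mmp3, Mmp7 and Mmp9 did not exceed 2, 5 and 3 counts in a library. Tgm2, tissue transglutaminase, which crosslinks osteopontin, was the 1 gene that passed at either time (33.3% of those tested, against 25.5% and 17.4% of all tested genes). It measured 122.6 ± 6.23, 104.3 ± 6.72 and 105.7 ± 1.56 CPM at the 3 times, and fell by 0.23 and 0.21 on the log2 scale (edgeR adjusted p = 0.00193 and 0.00502), with 21.8% of its exonic bases overlapping genes on the opposite strand.

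The ligands that share alpha v integrins with osteopontin showed no common direction. Of 13 listed, 11 were in the table and 7 were tested, of which 1 passed as higher and 1 as lower at each time against 0 h (28.6%, against 25.5% and 17.4% of all tested genes). Ccn2, a matricellular protein, measured 303.8 ± 15.5, 350.2 ± 30.0 and 364.8 ± 0.848 CPM and rose by 0.20 and 0.26 (adjusted p = 0.00810 and 0.00183). Tgfb3, whose latent precursor binds alpha v integrins, measured 95.2 ± 5.83, 76.7 ± 4.56 and 70.0 ± 1.33 CPM and fell by 0.31 and 0.44 (adjusted p = 2.7e-04 and 1.2e-05). Opposite-strand genes overlap 23.2% of the exonic bases of Ccn2 and 12.4% of those of Tgfb3. Fibronectin (Fn1), at a mean of 4595 CPM, did not pass (log2 fold change 0.0095, adjusted p = 0.960, and 0.084, adjusted p = 0.612).

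Adaptors and kinases that connect beta chains to actin and to signaling were next examined, with 25 of 29 listed genes tested. At 12 h, 2 passed as higher and 6 as lower (32% of the list, against 25.5% of all tested genes), and at 24 h 3 passed as higher and 1 as lower (16%, against 17.4%). The list medians were -0.0034 and -0.0022 on the log2 scale. Parva, alpha-parvin, which ties integrin-linked kinase to actin, measured 190.4 ± 3.56, 150.0 ± 5.74 and 159.2 ± 2.7 CPM. Parva fell by 0.34 and 0.26 (edgeR adjusted p = 7.0e-06 and 1.1e-04), and both calls held under all 16 alternatives. Tln1, the talin that activates integrins by binding beta chain tails, fell by 0.26 at 12 h (adjusted p = 0.00507), and its 24 h value of -0.17 did not pass (adjusted p = 0.0624), although it did in 8 of 16 alternatives.

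Nedd9 and Lims2 in the same list gave calls that did not hold up. Nedd9, a scaffold of focal adhesions, fell by 0.26 at 12 h (adjusted p = 0.0398). The call was lost in 10 of 16 alternatives, among them DESeq2 (adjusted p = 0.06) and every fit that left out 1 library except replicate 1 of 0 h, with -0.15 without replicate 3 of 0 h. At 24 h its value was -0.010. Lims2, a PINCH adaptor of low abundance, went from 0.636 to 1.42 CPM and was 1.5-fold called at 24 h (log2 fold change 1.15, adjusted p = 0.0430). That call was lost without replicate 1 (1.26) or 3 (0.83) of 0 h, or any 1 of the 24 h replicates (1.20, 1.02 and 1.24).

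For CD44, 16 of 22 listed hyaluronan enzymes, receptors and CD44 partners were tested. At 12 h, 6 passed as higher and 0 as lower, and at 24 h 4 passed as higher and 2 as lower (37.5% at either time, against 25.5% and 17.4% of all tested genes), with list medians of 0.063 and 0.049. Hmmr encodes a hyaluronan-mediated motility receptor that is also a mitotic spindle protein. It measured 54.9 ± 6.83, 79.3 ± 5.56 and 85.0 ± 3.24 CPM, rising by 0.53 and 0.63 on the log2 scale (edgeR adjusted p = 4.4e-05 and 9.5e-06), the latter past 1.5-fold. Ezr, encoding the CD44 anchor ezrin, rose by 0.21 and 0.15 (adjusted p = 9.8e-04 and 0.0124) to 629.0 and 605.5 CPM from 544.6 CPM.

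Hyal1 and Cemip2, whose products degrade or are described as binding hyaluronan, also belong to this list. Hyal1 went from 6.84 ± 0.253 CPM to 9.70 ± 0.732 at 12 h and 8.98 ± 0.749 at 24 h, rising by 0.50 and 0.39 (adjusted p = 0.00113 and 0.00945). Same-strand genes, Hyal3 and Naa80, overlap 51.9% of the exonic bases of Hyal1, so its counts are uncertain. Cemip2 did not pass at 12 h (0.060, adjusted p = 0.570) and rose by 0.26 at 24 h (adjusted p = 0.0142). The 24 h calls were lost for Ezr without replicate 2 of 24 h (0.13), for Hyal1 without replicate 3 of 24 h (0.32), and for Cemip2 without replicate 2 of 0 h (0.23) or replicate 1 of 24 h (0.23). Between 12 and 24 h the 1 gene of this list that passed was Adam17, a sheddase (-0.14, adjusted p = 0.0314), named here after its values were seen.

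Factors listed as acting on the Spp1 promoter comprised 15 genes, of which 14 were tested. At 12 h, 4 passed as higher and 0 as lower (28.6%, against 25.5% of all tested genes), and at 24 h 3 passed as higher and 1 as lower (28.6%, against 17.4%), with list medians of 0.065 and 0.063. Fosl1, an AP-1 subunit, had the largest change of the list at 12 h, from 25.2 ± 1.52 to 38.5 ± 2.12 CPM, and was back at 27.2 ± 0.372 CPM at 24 h. Fosl1 rose by 0.61 at 12 h (edgeR adjusted p = 2.2e-06), did not pass at 24 h against 0 h (0.11, adjusted p = 0.255) and fell by 0.50 between 12 and 24 h (adjusted p = 1.7e-04). Opposite-strand Ccdc85b overlaps 57.2% of the exonic bases of Fosl1, so its counts are uncertain.

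Fos and Jun, the other AP-1 genes of the list, had different courses. Jun rose by 0.27 at 12 h (adjusted p = 0.00153) and did not pass at 24 h (0.10, adjusted p = 0.222). Fos measured 21.2 ± 1.34, 22.2 ± 3.02 and 14.8 ± 0.422 CPM, did not pass at 12 h (0.069, adjusted p = 0.594) and fell by 0.52 at 24 h against 0 h (adjusted p = 4.7e-04) and by 0.59 against 12 h (adjusted p = 8.3e-04). Etv5, an ETS factor, rose by 0.32 and 0.43 (adjusted p = 9.6e-04 and 8.2e-05), from 24.5 ± 1.08 to 30.6 ± 2.16 and 33 ± 0.840 CPM. Runx2, the osteoblast factor, did not pass at either time (-0.069, adjusted p = 0.601, and 0.0037, adjusted p = 0.984).

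Taking the 6 lists as one, 76 of 115 genes were tested. At 12 h 14 passed as higher and 9 as lower, or 30.3% against 25.5% of all tested genes. At 24 h 14 passed as higher and 6 as lower, or 26.3% against 17.4%, and between 12 and 24 h 1 passed as higher and 3 as lower, or 5.26% against 5.03%. Only Fosl1 at 12 h, and Itga7, Lims2 and Hmmr at 24 h, also reached 1.5-fold against 0 h, and all 4 were higher than at 0 h. Of all tested genes, 2.29% did so at 12 h and 2.27% at 24 h in either direction. With so few list genes, nothing is read from their count or direction. Itga7 and Lims2 were of low abundance, with means of 0.859 and 1.07 CPM.

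**Figure D4:**
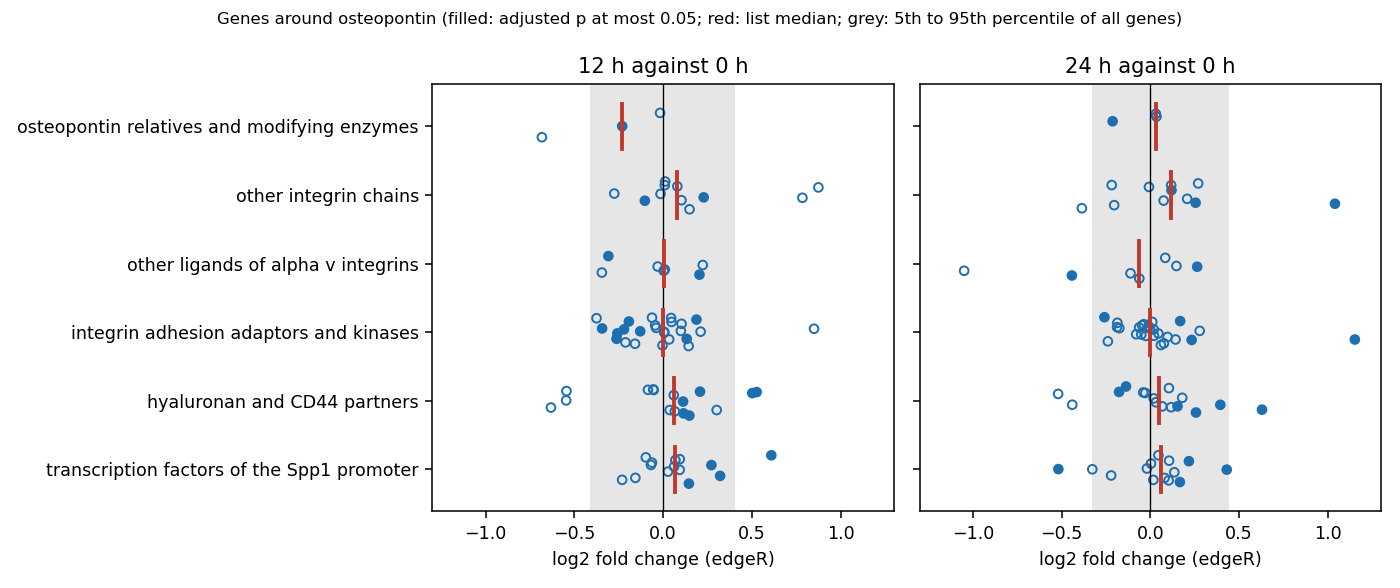
Log2 fold change (edgeR) of each tested gene of the 6 lists at 12 h (left) and 24 h (right) against 0 h; filled points passed an adjusted p of 0.05, red ticks are list medians and the grey band spans the 5th to 95th percentile of all tested genes. All list medians except that of the 3 osteopontin relatives and modifying enzymes at 12 h (-0.23) lie between -0.062 and 0.12.

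The genes whose pattern over the 9 libraries was most like that of Spp1 were found by Pearson's r of log2 CPM. They were taken from 8537 genes with a mean of at least 10 CPM, leaving out those with predicted or clone names. They were Tubb5 (r = 0.996), a beta-tubulin, Phgdh (0.991), the first enzyme of serine synthesis, E2f8 (0.991), a cell cycle transcription factor, Mcm6 (0.991), a subunit of the replicative helicase, and Ncapg (0.990), a condensin subunit. Their log2 fold changes were 0.47, 0.20, 0.88, 0.56 and 0.62 at 12 h and 0.46, 0.22, 0.87, 0.50 and 0.64 at 24 h. Like Spp1, all 5 were higher in every library after NRG1 than in every 0 h library. This separation follows from choosing them for their likeness to Spp1 and is no further result. Of all tested genes, 38.4% did not overlap between 0 and 12 h and 35.5% between 0 and 24 h, in either direction. These correlations are descriptions over libraries that fall into 3 time points and share 1 scaling, and they mainly restate a difference between 0 h and later times. Tubb5 has close paralogs, and the handling of reads that match several genes was not stated.

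**Figure D5:**
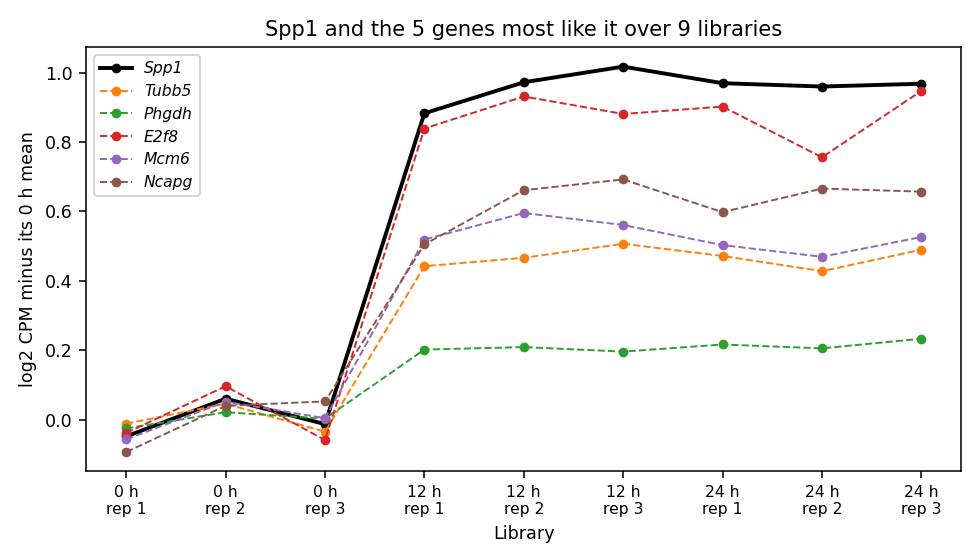
Log2 CPM minus the 0 h mean of the same gene (vertical axis) in each of the 9 libraries (horizontal axis) for Spp1 and the 5 genes most like it. All 6 lie near 0 in the 0 h libraries and are raised in all 6 later libraries, Spp1 the most and Phgdh the least on average.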

How the data were processed

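RNA-seq of 9 MyC-CaP libraries was used. The authors trimmed reads with Cutadapt, aligned them to GRCm38.p6 with STAR using GENCODE annotation, and counted them per gene with featureCounts. The deposited values are raw counts per protein-coding gene, with no normalization. Whether the counting used read strand, and how reads matching several genes were handled, was not stated. Times were taken from the labels.

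Genes were filtered with filterByExpr (11373 of 15552 left), scaled by TMM and fitted together with glmQLFit in edgeR 4.0.16 (R 4.3.3). Time points were compared with glmQLFTest, two-sided, with Benjamini-Hochberg adjustment over all tested genes. Passing means an adjusted p of at most 0.05, and 1.5-fold was counted in addition. Log2 CPM used a prior count of 2. Exon lengths came from a neighbouring GENCODE release on GRCm38 (15541 genes with a length, of which 15416 had start and end as in the table). The alternatives changed one choice each, except DESeq2 1.42.0, which changed the test, the scaling and the filter together. Replicate libraries differed by more than counting error over the table as a whole; for genes with few counts, counting error also limits the precision. The procedure was tested on simulated data.

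The 6 genes and the gene lists were chosen with earlier results of these data known. Named were those 6, up to 4 passing genes per list with the largest change and a mean of at least 1 CPM, further osteopontin receptor chains by level, and the 5 genes most like Spp1. Fn1, Runx2, Itga7, Adam17 and the genes named as near 0 were added after values were seen. Each library counts as 1 sample. A luminal marker is not reported here.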

Additional observations from a re-analysis of the deposited data

How the results depend on the processing

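The counts of passing receptor chains and list genes were recomputed under 16 alternatives, as were the log2 fold changes of genes named by rule. Between 12 and 24 h, these fold changes were recomputed for the 6 genes only. Genes added after values were seen, counts of non-overlap, shares, ratios and correlations were not recomputed. The alternatives included RLE, total count and upper quartile scaling, no filter on low counts, DESeq2, a replicate block and only the 6 libraries compared. The rest were 9 fits leaving out 1 library each. The log2 fold change of Spp1 ranged from 0.93 to 0.99 after 12 h and from 0.94 to 1.00 after 24 h. The number of receptor chains passing stayed at 2 at 12 h against 0 h, but the chains were not always the same. Without replicate 1 of 0 h, Cd44 no longer passed (edgeR adjusted p = 0.0703) and Itgb3 did (adjusted p = 0.0453). At 24 h against 0 h, 3 chains passed under DESeq2 and 1 to 2 with 1 library left out. Only 1 passed without replicate 3 of 0 h or without any 1 of the 24 h replicates. Without replicate 1 of 0 h, 2 passed, with Itgb1 (edgeR adjusted p = 0.0407) in place of Itgb5 (adjusted p = 0.122). Between 12 and 24 h, 1 chain passed under DESeq2 and 0 in every fit with 1 library left out. Of the list genes, leaving out 1 library gave 9 to 17 passing as higher at 12 h (reported value 14, 9 without replicate 3 of 12 h), 5 to 8 as lower (reported value 9, 5 without replicate 2 of 0 h or replicate 1 of 12 h) and 8 to 18 as higher at 24 h (reported value 14, 9 without replicate 3 of 0 h and 8 without replicate 2 of 24 h). Between 12 and 24 h, where 1 passed as higher and 3 as lower, leaving out 1 library gave 1 to 4 as higher (4 without replicate 3 of 12 h), total count and upper quartile scaling, no filter, DESeq2 and the replicate block each gave 2 as higher, and no filter gave 7 and DESeq2 6 as lower. The causes were not tested.

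Some values near 0 changed sign. Spp1 between 12 and 24 h, 0.0075 as reported and not tested, ran from -0.029 (without replicate 1 of 12 h) to 0.032. Itgav at 12 h was 6.9e-04 with RLE scaling, 0.0016 without a filter and 0.0016 with DESeq2, against -2.9e-06, and -0.064 to 0.057 with 1 library left out; Itgb1 at 12 h was 2.8e-04, 0.0013 and 9.8e-04, and -0.013 to 0.016. With 1 library left out, Itgav ran from -0.028 to 0.041 at 24 h and from -0.051 to 0.073 between 12 and 24 h, Itgb5 from -0.011 to 0.11 between 12 and 24 h, Fos from -0.015 to 0.16 at 12 h, and Nedd9 from -0.070 to 0.096 at 24 h.

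Replicate numbers were not shown to pair the cultures: deviations of same-numbered libraries correlated from -0.114 to 0.219, over 0.1 in 4 of 9 pairs. With the replicate block, 2956, 2039 and 609 genes of the table passed at 12 h, at 24 h and between them, against 2896, 1982 and 572, and no receptor chain changed its call. Whole-table counts differed by more than 1.5 times between 12 and 24 h only, where 572 genes passed: 950 passed without the filter, 879 without replicate 3 of 12 h, and 214 without replicate 1 of 12 h, 217, 220 and 263 without replicate 1, 2 and 3 of 24 h.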
